A study of Mus musculus with 2 samples.

Results

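The steroid receptors and the enzyme of local glucocorticoid activation were described here by 4 genes of the 32285 in the expression matrices. The members were Nr3c1, which encodes the glucocorticoid receptor, Nr3c2, which encodes the mineralocorticoid receptor, Esr1, which encodes estrogen receptor α, and Hsd11b1, which encodes the enzyme 11β-hydroxysteroid dehydrogenase type 1 (11β-HSD1). They were taken as a list of named genes, with earlier results of these data known, and no threshold on their values was used. Adrenal glands came from wild-type C57Bl/6 mice at an age of 7 weeks, and their live CD45+ cells were sorted and profiled by droplet-based single-cell RNA sequencing. There was 1 library of female mice and 1 library of male mice. The labels name no treatment or altered allele, and how many mice were pooled for a library is not given in the sources used here. Sex and library therefore cannot be told apart, and no test between the sexes was possible.

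Glucocorticoids are made in the adrenal cortex and act on target cells through the glucocorticoid receptor, a hormone-bound transcription factor that can induce or repress genes. The mineralocorticoid receptor also binds glucocorticoids with high affinity unless the enzyme 11β-HSD2 inactivates them in the same cell. 11β-HSD1 works in the other direction, since inside the endoplasmic reticulum it turns the inert 11-keto steroid (11-dehydrocorticosterone in mice) back into active corticosterone, with NADPH supplied by hexose-6-phosphate dehydrogenase. Estrogen receptor α is the main nuclear receptor for estradiol and is present in many myeloid and lymphoid cells.

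In the GRCm38 annotation Nr3c1 (ENSMUSG00000024431) lay on the minus strand of chromosome 18 from 39410545 to 39519421, and Esr1 (ENSMUSG00000019768) on the plus strand of chromosome 10 from 4611593 to 5005614. Neither overlapped another annotated gene. Nr3c2 (ENSMUSG00000031618) lay on the plus strand of chromosome 8 from 76899442 to 77245012, where it overlapped 3 non-coding genes. Hsd11b1 (ENSMUSG00000016194) lay on the minus strand of chromosome 1 from 193221634 to 193264075. Its span overlapped Lamb3 and the antisense gene 4930570N18Rik on the plus strand and Gm38118 on the same strand, so a small share of its unique molecular identifiers (UMIs, counts of single captured transcripts) could belong to a neighbour.

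The matrices held 3963 female and 2685 male barcodes, of which 3693 and 2448 cells were kept, with 15047743 and 9020030 UMIs. Median depth was 3488 UMIs per cell in the female library and 2994 in the male library. The libraries shared 2 barcode sequences. The cells formed 23 clusters, and 21 of these were named from canonical markers as 12 classes, with macrophages divided into Lyve1-high, Aldh1a2-high and other macrophages. The Aldh1a2-high cluster was named from its own markers (Lyz1, Retnla, Fn1, Ear2, Aldh1a2). Endothelial cells were not leukocytes by their genes. Kdr, the main VEGF receptor, had a UMI in 86.4% of them in the female library and 85.7% in the male library, and Ptprc, which encodes CD45, had one in 20.5% and 24.5%, against 84.1% and 77.1% of the other cells.

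Levels below are UMIs of a gene per 1e6 UMIs of all genes (CPM), summed over the cells of a class, and the range after a level is its exact 95% Poisson interval. A ratio of levels carries an exact 95% interval of the same kind. These intervals cover counting error only and not the spread between mice. Shares of cells with a UMI were read after each cell had been thinned to 1000 UMIs, because a deeper cell is more likely to show any transcript. The libraries count 3′ ends, and levels were compared between classes for 1 gene and not between genes.

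**Figure D1:**
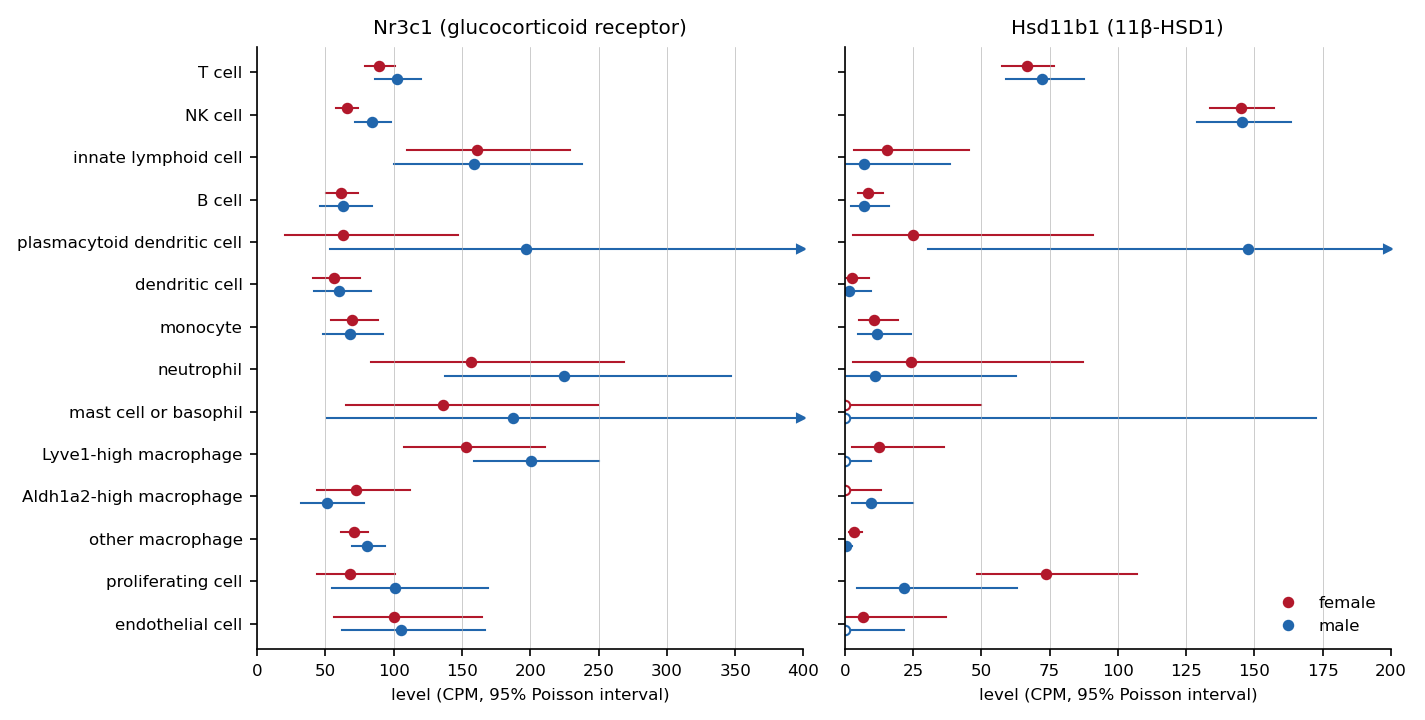
Level of Nr3c1 (left) and Hsd11b1 (right) in CPM on linear axes for 14 cell classes and macrophage subsets, with the female library in red and the male library in blue. Points are levels from summed UMIs, lines are exact 95% Poisson intervals, open points mark 0 UMIs and arrows mark intervals that run past the axis; Nr3c1 is above 0 in every class, whereas Hsd11b1 stands at 145 and 146 CPM in NK cells and 66.5 and 72.4 CPM in T cells and below 26 CPM in every other class but proliferating cells and the 8 male plasmacytoid dendritic cells.

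Hsd11b1, the enzyme that regenerates corticosterone, was a transcript of natural killer (NK) and T cells in both libraries. All kept cells together held 870 Hsd11b1 UMIs in the female library and 415 in the male library. NK and T cells contributed 90.6% of them in the female library and 93.3% in the male library, whereas they made up 42.2% and 30.3% of the cells. NK cells alone held 68.0% and 68.2% of the Hsd11b1 UMIs.

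In NK cells the Hsd11b1 level was 145 CPM (134 to 157, 592 UMIs in 865 cells) in the female library and 146 CPM (129 to 164, 283 UMIs in 369 cells) in the male library. In T cells it was 66.5 CPM (57.6 to 76.5, 196 UMIs in 694 cells) and 72.4 CPM (59.1 to 87.7, 104 UMIs in 373 cells). The level in NK cells was thus 2.18 times that in T cells (1.85 to 2.58) in the female library and 2.01 times (1.60 to 2.54) in the male library, and the intervals of the classes did not overlap in either. A gene at least 1.5-fold higher in NK than in T cells was not rare, since 15.9% of 7233 genes in the female library and 22.4% of 5255 genes in the male library were, counting genes with at least 50 UMIs in either class. Among cells of 1000 to 3000 UMIs only, the ratio for Hsd11b1 was 3.69 and 4.13.

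Shares of cells gave the same order. Among cells thinned to 1000 UMIs, 15.4% of female NK cells (13.1% to 18%) and 16.9% of male NK cells (13.2% to 21.2%) had an Hsd11b1 UMI, against 6.91% (5.12% to 9.09%) and 6.34% (4.06% to 9.36%) of T cells. Without thinning the shares were 46.0% and 49.3% of NK cells and 23.5% and 21.7% of T cells. B cells were taken as the comparison class for low shares, and 0.402% and 0.395% of them had a UMI after thinning. Of the 13 female and 5 male B cells with an Hsd11b1 UMI, 1 and 0 also had at least 2 NK or T cell markers, and the source of these UMIs was not tested. Before thinning, the median depth of all B cells was 2208 and 1762 UMIs. This was below the 4129 and 4858 UMIs of NK cells and the 3870 and 3670 UMIs of T cells. B cells with an Hsd11b1 UMI were deeper than the class, with median depths of 5617 (female) and 4798 (male) UMIs. For B cells without one the median depth was 2196 (female) and 1744 (male) UMIs. Whether depth decided which B cells had a UMI was not tested.

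**Figure D2:**
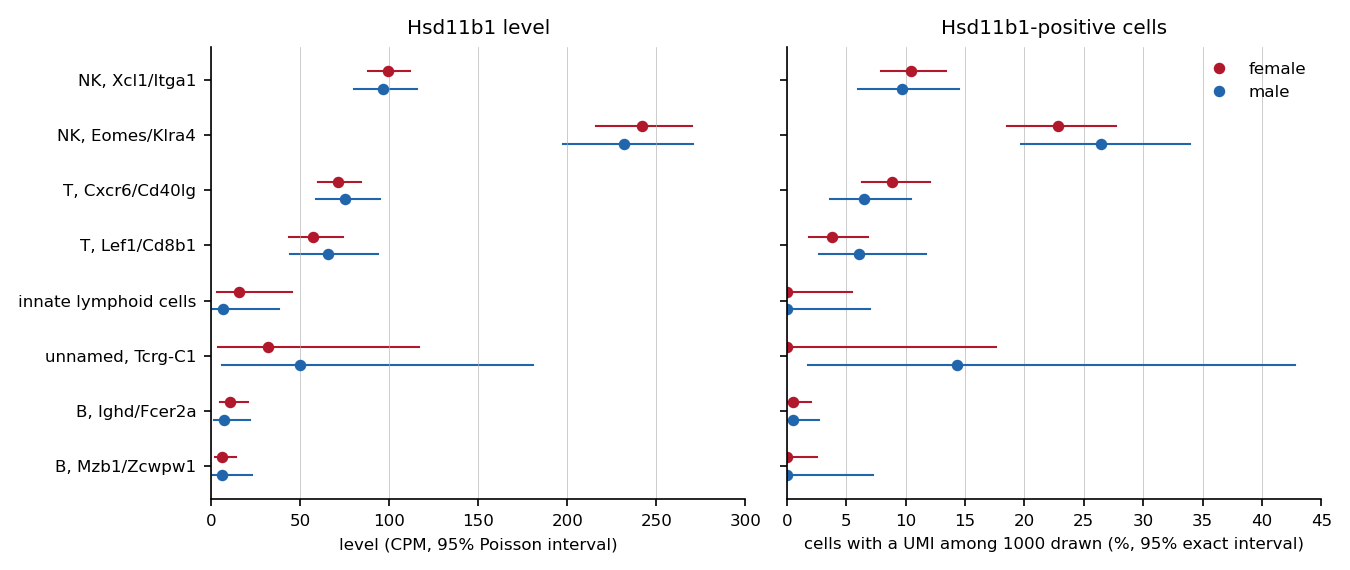
Hsd11b1 in 8 lymphoid clusters named by leading genes, as level in CPM with exact 95% Poisson intervals (left) and as the percent of cells with a UMI among 1000 drawn with exact 95% binomial intervals (right); red is the female and blue the male library. The Eomes/Klra4 NK cluster lies highest at 242 and 232 CPM, the Xcl1/Itga1 NK cluster and both T clusters lie between 57.4 and 99.3 CPM, both B clusters and the innate lymphoid cells lie below 16 CPM, and the unnamed cluster has 2 UMIs in each library.

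NK cells fell into a pair of clusters that differed in Hsd11b1. The cluster led by Prf1, Klra4, Klra8, Gzma and Eomes, genes of circulating-type cytotoxic NK cells, had 242 CPM (216 to 270) in the female library and 232 CPM (198 to 270) in the male library. The cluster led by Xcl1, Cd160 and Itga1, genes of tissue-resident type 1 innate lymphoid cells, had 99.3 CPM (87.9 to 112) and 96.7 CPM (80.2 to 116). The ratio was 2.44 (2.07 to 2.87) in the female library and 2.40 (1.88 to 3.06) in the male library, whereas 9.01% of 5926 genes and 7.14% of 3756 genes were at least 1.5-fold higher in the Eomes cluster. Thinned shares were 22.9% and 26.4% in the Eomes cluster and 10.5% and 9.66% in the Itga1 cluster. The Itga1 cluster was the deeper of the pair, with a median of 4741 and 5512 UMIs per cell against 3467 and 4112.

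The clusters of T cells did not differ in Hsd11b1 beyond counting error. The cluster led by Cxcr6, Cd40lg and Cd28, genes of antigen-experienced T cells, had 71.4 CPM (59.98 to 84.5) and 75.4 CPM (59.2 to 94.7), and the cluster led by Dapl1, Lef1, Ccr7 and Tcf7, genes of naive T cells, had 57.4 CPM (43.7 to 74.0) and 65.8 CPM (44.4 to 93.9). The ratios of 1.24 (0.911 to 1.72) and 1.15 (0.741 to 1.82) had intervals that included 1. T cells gated on Cd8a or Cd8b1 transcripts had 66.7 CPM in the female library and 85.1 CPM in the male library, and those gated on Cd4 had 54.8 and 62.8 CPM. The few T cells with a Trdc UMI, the constant gene of the γδ receptor, had 63.9 CPM from 8 UMIs in 26 female cells and 25.6 CPM from 2 UMIs in 18 male cells. Intervals of these gates overlapped within each library.

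Innate lymphoid cells, which lack antigen receptors but share many genes with T cells, had only 3 Hsd11b1 UMIs in 70 female cells and 1 in 55 male cells. Their levels of 15.6 CPM (3.22 to 45.6) and 6.89 CPM (0.174 to 38.4) lay below the NK and T cell intervals of the same library.

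B cells had 8.48 CPM (4.75 to 14.0, 15 UMIs) in the female library and 6.96 CPM (2.26 to 16.2, 5 UMIs) in the male library. The level in NK cells was 17.1 times (10.3 to 30.8) and 20.9 times (8.86 to 64.9) as high, beside 42.9% and 47.7% of genes that were at least 1.5-fold higher in NK than in B cells. Monocytes had 10.5 CPM (5.06 to 19.4) and 11.9 CPM (4.76 to 24.4). Within them the cluster led by Ace and Nr4a1, genes of patrolling monocytes, had 20.5 CPM from 4 UMIs and 33.6 CPM from 5 UMIs.

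Macrophages, the most numerous class of the male library, had very little Hsd11b1. Their level was 3.84 CPM (2.05 to 6.57, 13 UMIs in 820 cells) in the female library and 1.67 CPM (0.542 to 3.89, 5 UMIs in 793 cells) in the male library. NK cells had 37.8 times (21.9 to 71.3) and 87.2 times (37.0 to 271) that level, where 30.8% and 29.8% of genes were at least 1.5-fold higher in NK cells than in macrophages. With so few macrophage UMIs the size of this ratio moved with the setting, from 20.4 with doublets kept to 143 among cells of 1000 to 3000 UMIs in the female library, and it was 25.8 as a mean over cells in the male library. After thinning 0.255% and 0.267% of macrophages had a UMI, no more than the share in B cells, and no expression was read from it. T cells had 17.3 times (9.89 to 33.1) and 43.4 times (18 to 136) the macrophage level, beside 23.7% and 19.1% of genes at 1.5-fold or more.

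Among macrophage subsets Hsd11b1 was at 12.4 CPM (3 UMIs) in female and 0 in male Lyve1-high cells, at 0 in female and 9.78 CPM (4 UMIs) in male Aldh1a2-high cells, and at 3.49 CPM (10 UMIs) and 0.455 CPM (1 UMI) in other macrophages. The library with UMIs changed from subset to subset. Of the 10 female macrophages with an Hsd11b1 UMI, 5 also had at least 2 NK or T cell markers, against 5.56% of the female macrophages without one. These 10 cells were deeper, with a median of 6686 UMIs against 3612, and the part of depth in this difference was not tested. In the male library this was 0 of 3 cells, against 2.66%. The part of other cells' transcripts in these UMIs was not tested beyond these counts.

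Dendritic cells had 2 and 1 Hsd11b1 UMIs (2.50 and 1.71 CPM), neutrophils 2 and 1 (24.1 and 11.2 CPM), and endothelial cells 1 and 0. Mast cells or basophils had 0 UMIs in 28 female and 11 male cells, which allows levels of up to 40.7 and 140 CPM (3 UMIs over the class). Plasmacytoid dendritic cells had 25.2 CPM from 2 UMIs in the female library and 148 CPM from 3 UMIs in the male library, all 3 in 1 of 8 cells. Proliferating cells had 73.6 CPM (48.5 to 107) from 27 UMIs and 21.6 CPM (4.45 to 63.0) from 3 UMIs. All 16 female and all 3 male proliferating cells with Hsd11b1 also carried at least 2 NK or T cell markers, as did 10 of 11 and 8 of 8 of those without it.

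Transcripts of other adrenal cells were measured beside Hsd11b1. The summed level of 10 adrenal cortex markers was 59.1 and 49.9 CPM in NK cells and 55.0 and 56.4 CPM in T cells, against 74.6 and 75.1 CPM in B cells, 285 and 277 CPM in macrophages and 2245 and 1592 CPM in endothelial cells. The summed level of 6 markers of fibroblasts, a cell type known for 11β-HSD1, was 1.23 and 1.03 CPM in NK cells and 2.72 and 1.39 CPM in T cells, against 1.70 and 1.39 CPM in B cells and 7.69 and 6.67 CPM in macrophages. The part of such transcripts in the Hsd11b1 values was not tested.

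The genes most like Hsd11b1 across 9 classes in both libraries, which gave 18 points, were Txk (Pearson's r = 0.955 on log2(CPM + 10)), Ctsw (0.95), Xcl1 (0.948), Il2rb (0.942) and Klrc1 (0.94), among 5850 genes with at least 500 UMIs. Txk encodes a T and NK cell kinase, Ctsw a protease of cytotoxic lymphocytes, Xcl1 a chemokine, Il2rb the β chain of the IL-2 and IL-15 receptors and Klrc1 an inhibitory NK receptor. The points share 2 libraries, and classes differ in depth, so these coefficients are descriptions only.

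Nr3c1, the glucocorticoid receptor gene, was detected in every class of both libraries. All cells together held 1137 UMIs (75.6 CPM) in the female library and 801 UMIs (88.8 CPM) in the male library. The share of these UMIs that came from NK and T cells, 46.6% and 38.8%, lay much nearer to their share of the cells than for Hsd11b1. Levels were between 56.2 CPM in dendritic cells and 161 CPM in innate lymphoid cells in the female library and between 51.3 CPM in Aldh1a2-high macrophages and 225 CPM in neutrophils in the male library. When 11 classes and macrophage subsets of at least 30 cells in each library were ordered by level, each interval overlapped that of the next in the order.

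Innate lymphoid cells had 161 CPM of Nr3c1 (110 to 229, 31 UMIs) in the female library and 158 CPM (100 to 238, 23 UMIs) in the male library. This was 2.10 times (1.40 to 3.05) and 1.72 times (1.07 to 2.63) the level in macrophages and 2.46 times (1.64 to 3.58) and 1.88 times (1.16 to 2.92) that in NK cells. A ratio of at least 1.5 was reached by 25.3% and 25.4% of genes over macrophages and by 17.9% and 13.5% over NK cells. With the ceiling of 1.2% on mitochondrial UMIs, which left 1 Nr3c1 UMI in male innate lymphoid cells, the male ratio to macrophages turned to 0.799. Hsd11b1 thus was lower, and Nr3c1 higher, in innate lymphoid cells than in NK cells of both libraries. In thinned cells 13.8% and 19.6% of innate lymphoid cells had an Nr3c1 UMI, against 5.60% and 7.38% of NK cells. No class known to lack this receptor was present to give a background share.

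Neutrophils had 157 CPM (83.5 to 268, 13 UMIs) and 225 CPM (137 to 347, 20 UMIs), which was 2.25 times (1.14 to 4.12) and 3.32 times (1.84 to 5.81) the monocyte level. Of 2764 and 1867 genes, 16.2% and 17.7% were at least 1.5-fold higher in neutrophils. The 5 neutrophils richest in Nr3c1 carried 76.9% of the female and 50% of the male UMIs. Without them the female neutrophil level was 43.6 CPM and the male level 133 CPM, so the female value rested on a few cells.

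Within macrophages, the Lyve1-high subset, known as perivascular resident macrophages in many tissues, had the highest Nr3c1 level. It was 153 CPM (108 to 211, 37 UMIs in 96 cells) in the female library and 201 CPM (159 to 251, 78 UMIs in 168 cells) in the male library. Other macrophages had 70.9 CPM (61.5 to 81.3) and 80.5 CPM (69.1 to 93.3), and Aldh1a2-high macrophages 72.3 CPM (44.1 to 112) and 51.3 CPM (31.8 to 78.4). The Lyve1-high level was 2.16 times (1.48 to 3.08) and 2.49 times (1.89 to 3.27) that of other macrophages, as was the case at 1.5-fold or more for 22.1% and 22% of genes. The intervals of Lyve1-high and other macrophages did not overlap in either library, whereas in the female library that of Aldh1a2-high cells overlapped both. Over Aldh1a2-high macrophages the ratio was 2.12 (1.197 to 3.85) and 3.91 (2.39 to 6.67), beside 20.1% and 23.3% of genes.

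The depth of the Lyve1-high cells was lower and their mitochondrial share higher. Their median was 1735 and 1840 UMIs per cell against 3988 and 3523 in other macrophages, and mitochondrial genes took a median of 5.52% and 5.83% of UMIs against 2.93% and 2.81%. In thinned cells the difference held in the male library, where 20.9% (14.4% to 28.8%) of Lyve1-high and 6.86% (4.85% to 9.37%) of other macrophages had an Nr3c1 UMI. In the female library the shares were 6.58% (2.17% to 14.7%) and 5.39% (3.76% to 7.45%) and did not differ beyond counting error. When cells were gated one by one instead of by cluster, the female ratio was 1.36 (0.973 to 1.86). The part of depth and of mitochondrial content in the Lyve1-high level was not tested further. Summed adrenal cortex markers were also higher there, at 546 and 463 CPM against 271 and 262 CPM in other macrophages.

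Other macrophages varied among their 3 clusters. Nr3c1 was lowest in the cluster led by Aif1, Wfdc17 and Cxcl14, at 52.7 CPM (37.4 to 72.0) and 46.1 CPM (30.6 to 66.6). The cluster led by Col14a1 and Tmem119 had 76.0 CPM (62.4 to 91.6) and 93.2 CPM (75.7 to 114), with a ratio to the former of 1.44 (0.993 to 2.14) in the female library and 2.02 (1.32 to 3.20) in the male library, beside 32.6% and 32.3% of genes at 1.5-fold or more. Female other macrophages with few MHC class II transcripts, of which there were 158, had 88.4 CPM, and the 473 with many had 64.8 CPM. The male library held only 14 such cells, with 1 Nr3c1 UMI.

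T cells had 89.3 CPM of Nr3c1 (78.8 to 101) and 102 CPM (86.4 to 120), which was 1.46 times (1.16 to 1.85) and 1.63 times (1.16 to 2.33) the B cell level of 61.0 and 62.6 CPM, beside 30.2% and 31.3% of genes. Within them the Cxcr6 cluster had 101 CPM (87.4 to 116) and 126 CPM (105 to 151), and the Lef1 cluster 67.1 CPM (52.2 to 85.0) and 50.4 CPM (32.0 to 75.7). The ratio of 1.51 (1.14 to 2.01) in the female library and 2.51 (1.60 to 4.10) in the male library excluded 1, where 31.7% and 40.3% of genes were at least 1.5-fold higher in the Cxcr6 cluster. Among cells of 1000 to 3000 UMIs the male ratio was 1.46.

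NK cells had 65.4 CPM (57.8 to 73.8) in the female library and 84.4 CPM (71.9 to 98.3) in the male library. The T cell level was 1.36 times (1.15 to 1.62) and 1.21 times (0.964 to 1.52) the NK cell level, where 5.3% and 4.34% of genes were 1.5-fold or more higher in T cells. The Eomes cluster had 81.7 and 79.7 CPM and the Itga1 cluster 57.8 and 87.0 CPM, so the direction between them differed by library. The ratio was 1.41 (1.10 to 1.82) in the female and 0.915 (0.651 to 1.28) in the male library.

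Monocytes had 69.7 and 67.7 CPM of Nr3c1, dendritic cells 56.2 and 59.8 CPM, and endothelial cells 99.9 CPM (55.9 to 165) and 105 CPM (62.4 to 167). Proliferating cells had 68.1 and 101 CPM. Mast cells or basophils had 136 CPM from 10 UMIs and 187 CPM from 4 UMIs, and plasmacytoid dendritic cells 62.9 CPM from 5 UMIs and 197 CPM from 4 UMIs. These last levels rest on 10 UMIs or fewer. Endothelial cells also had 73.3 and 784 CPM of the 6 fibroblast markers, and mast cells or basophils 0 and 1309 CPM, beside 1031 and 3414 CPM of the 10 cortex markers. The part of such transcripts in the Nr3c1 levels of these classes was not tested.

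The genes most like Nr3c1 over the same 18 points were Txnip (Pearson's r = 0.877), Ngly1 (0.871), Atg16l1 (0.857), Anxa11 (0.851) and Chm (0.848). Txnip encodes a thioredoxin-binding protein and is itself known to respond to glucocorticoids. The other members had too few UMIs for such a comparison.

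Cells with Hsd11b1 did not differ beyond counting error in how often they also had Nr3c1. Among NK cells thinned to 3000 UMIs, 19.9% of 236 female cells with Hsd11b1 also had Nr3c1, against 15.8% of 450 without it, a difference of 4.14 percentage points (-1.74 to 10.5). In male NK cells the shares were 23.2% and 21.4%, a difference of 1.79 points (-7.35 to 11.8). T cells gave 20.3% against 22.4% in the female library and 39.0% against 26.9% in the male library, where the difference of 12.1 points had an interval from -2.93 to 28.5. Each of the 4 intervals included 0.

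**Figure D3:**
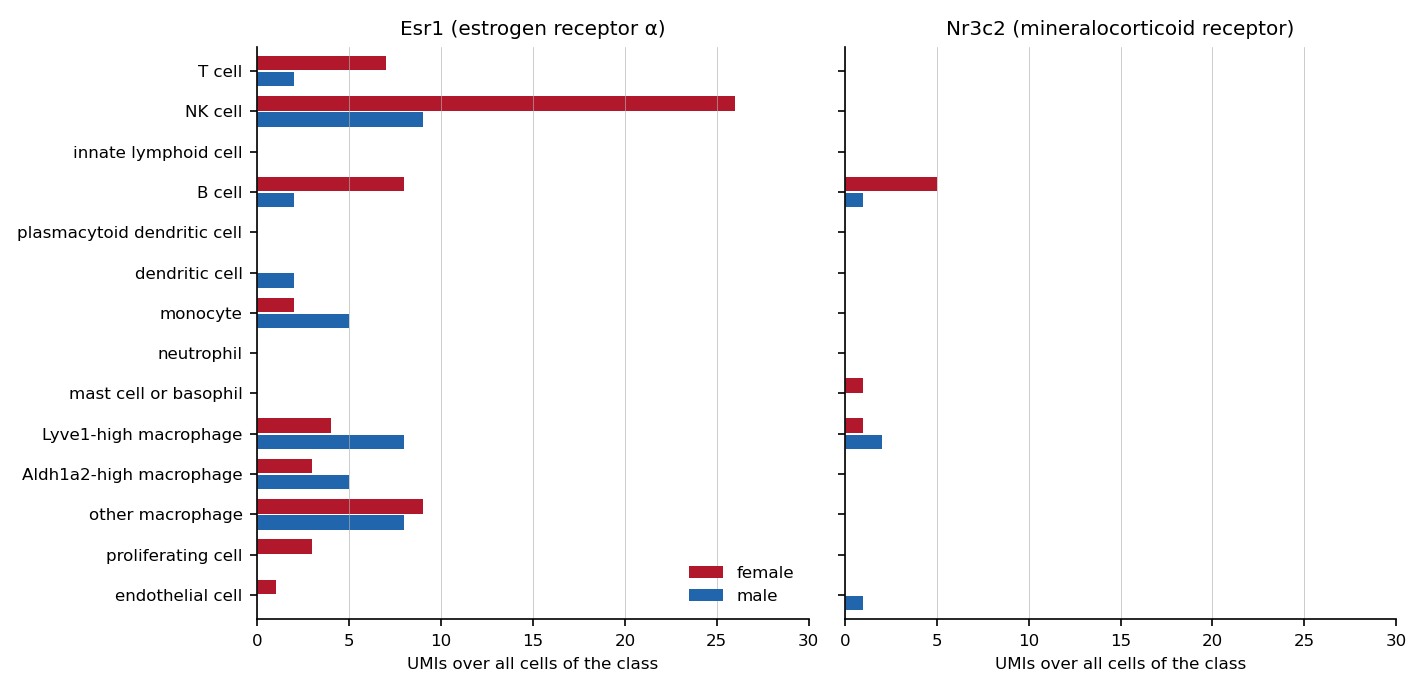
Number of Esr1 (left) and Nr3c2 (right) UMIs summed over all cells of each class, with the female library in red and the male library in blue, on linear axes that start at 0. NK cells hold 26 and 9 and all macrophage subsets together 16 and 21 of the 63 female and 42 male Esr1 UMIs, and Nr3c2 has 7 and 4 UMIs in all.

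Esr1, the estrogen receptor α gene, was sparse. The female library held 63 UMIs in 59 cells (4.19 CPM, 3.22 to 5.36) and the male library 42 UMIs in 39 cells (4.66 CPM, 3.36 to 6.29). No class reached 50 Esr1 UMIs. NK cells had 6.37 CPM (4.16 to 9.34, 26 UMIs) and 4.63 CPM (2.12 to 8.79, 9 UMIs), macrophages 4.73 CPM (2.70 to 7.68, 16 UMIs) and 7.01 CPM (4.34 to 10.7, 21 UMIs), and T cells 2.38 and 1.39 CPM from 7 and 2 UMIs. B cells had 8 and 2 UMIs, monocytes 2 and 5, dendritic cells 0 and 2, endothelial cells 1 and 0 and proliferating cells 3 and 0.

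Among macrophage subsets defined by cluster, Esr1 like Nr3c1 was highest in Lyve1-high cells. The level there was 16.5 CPM (4.51 to 42.3, 4 UMIs) in the female library and 20.6 CPM (8.89 to 40.6, 8 UMIs) in the male library, and 3.14 CPM (9 UMIs) and 3.64 CPM (8 UMIs) in other macrophages. The ratio was 5.26 (1.18 to 18.9) and 5.66 (1.85 to 17.3), beside 22.1% and 22% of all genes at least 1.5-fold higher in Lyve1-high cells. Aldh1a2-high macrophages had 10.84 and 12.22 CPM from 3 and 5 UMIs, with intervals that overlapped both other subsets. Against other macrophages, 22.3% and 20.7% of all genes were at least 1.5-fold higher in Aldh1a2-high cells. Gating cells one by one lowered the Lyve1-high levels to 3.897 CPM (2 UMIs) and 8.31 CPM (5 UMIs), and the male Aldh1a2-high level was then higher at 16.8 CPM (5 UMIs). By cluster, summed fibroblast markers were at 33.1 and 7.72 CPM in Lyve1-high cells, against 5.59 and 7.28 CPM in other macrophages. The part of other cells' transcripts in the Esr1 levels was not tested.

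No Esr1 UMI was found in innate lymphoid cells, neutrophils, mast cells or basophils, or plasmacytoid dendritic cells of either library. For the 70 female and 55 male innate lymphoid cells this allows a level of up to 15.6 and 20.7 CPM, so a level like that of NK cells was not detectable at this depth.

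Nr3c2, the mineralocorticoid receptor gene, was at the limit of detection, with 7 UMIs in 6 of 3693 female cells and 4 UMIs in 4 of 2448 male cells. Of these 11 UMIs, B cells held 5 and 1, Lyve1-high macrophages 1 and 2, female mast cells or basophils 1 and male endothelial cells 1. The 6 B cell UMIs all lay in the cluster led by Igkc, Ighm, Mzb1 and Zcwpw1, genes of B-1-type and antibody-producing B cells, with 5.33 CPM (1.73 to 12.4) in the female and 3.18 CPM (0.0806 to 17.7) in the male library. NK cells had 0 of 4079906 and 0 of 1944262 UMIs, which allows up to 0.735 and 1.54 CPM. T cells allow up to 1.02 and 2.09 CPM and other macrophages up to 1.05 and 1.36 CPM. Monocytes, dendritic cells, neutrophils, innate lymphoid cells, plasmacytoid dendritic cells and proliferating cells also had 0 UMIs.

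**Figure D4:**
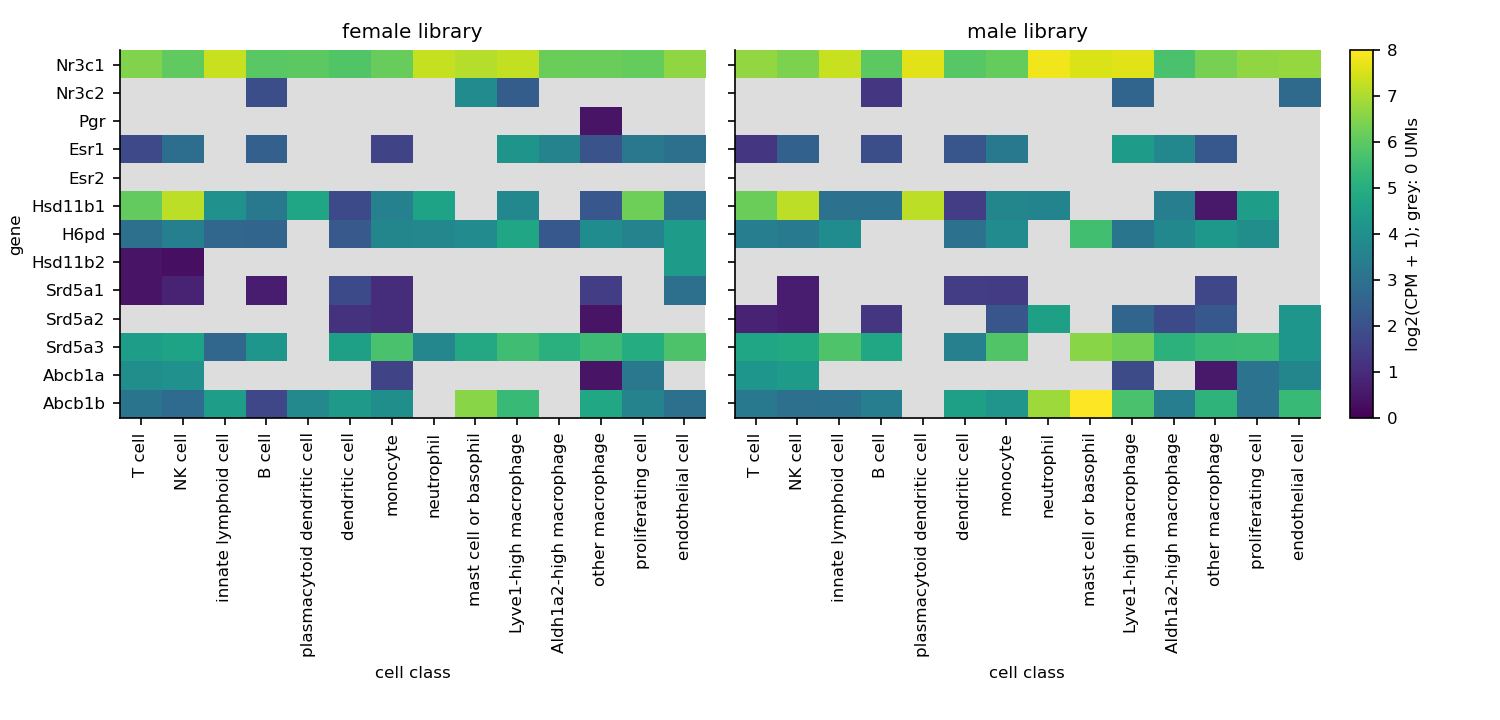
Levels of 13 receptor, enzyme and exporter genes (rows) in 14 classes and macrophage subsets (columns) of the female (left) and male (right) library, coloured by log2(CPM + 1) with 0 UMIs in grey. Nr3c1 is coloured in every column, Hsd11b1 is brightest in NK cells among the classes with over 10 of its UMIs, and Esr2 is grey throughout.

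The progesterone receptor gene Pgr and the estrogen receptor β gene Esr2 were also looked for. Pgr had 1 UMI in the female library and 0 in the male library. Esr2 was undetected in both, which allows up to 0.199 and 0.333 CPM over all cells.

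Enzymes and exporters that set the intracellular glucocorticoid level were measured alongside. H6pd, which supplies the NADPH for 11β-HSD1, had 9.57 CPM (8.07 to 11.3) and 10.98 CPM (8.92 to 13.4) over all cells, 10.0 and 8.74 CPM in NK cells, 6.79 and 9.74 CPM in T cells and 13.9 and 16.02 CPM in macrophages. H6pd thus did not share the class pattern of Hsd11b1. Hsd11b2, whose product inactivates corticosterone, had 5 UMIs in 3 female cells, 3 of them in 1 endothelial cell, and 0 in the male library. Abcb1a, one of a pair of mouse genes for the steroid exporter P-glycoprotein, was like Hsd11b1 mainly found in NK and T cells, at 15.7 and 20.1 CPM in NK cells and 14.6 and 17.4 CPM in T cells and at 0.296 and 0.667 CPM in macrophages, with 0 UMIs in B cells and innate lymphoid cells of both libraries. Its copy Abcb1b was at 25.1 and 34.0 CPM in macrophages and 5.88 and 6.69 CPM in NK cells. The pair is similar in sequence, so reads may have been split between them. Of the 5 genes of this list with at least 50 UMIs in a library, Abcb1b alone passed 1.5-fold over all cells, with a female to male ratio of 0.603 (0.738 in macrophages), where 7.96% of all genes passed in either direction.

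The 5α-reductase genes, whose products clear steroids, were Srd5a3 at 28.4 and 34.3 CPM over all cells, Srd5a1 with 14 and 8 UMIs and Srd5a2 with 3 and 22 UMIs. Srd5a3, which also serves protein glycosylation, was at 42.6 and 45.1 CPM in macrophages, 50.7 and 55.9 CPM in monocytes and 24.0 and 28.3 CPM in NK cells. Of the male Srd5a2 UMIs 11 lay in macrophages, against 1 in the female library.

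**Figure D5:**
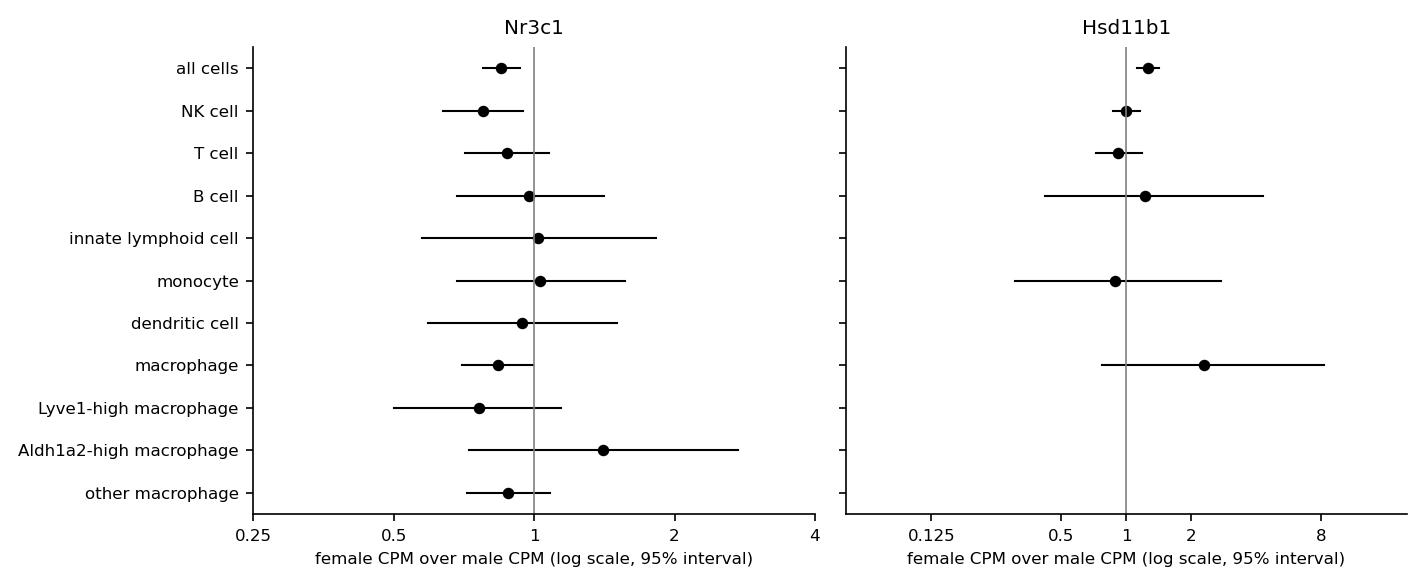
Ratio of female to male CPM on a log axis for Nr3c1 (left) and Hsd11b1 (right), with exact 95% intervals that cover counting error only and a line at a ratio of 1, for classes with at least 3 UMIs in each library. Hsd11b1 is at 0.997 in NK cells and 0.920 in T cells but 1.26 over all cells, and Nr3c1 lies below 1 in NK cells (0.776) and macrophages (0.835).

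The libraries were compared class by class with no test, and a difference was counted from 1.5-fold on in genes with at least 50 UMIs in either library. Of the 4 members, Nr3c1 reached that depth in 5 classes and Hsd11b1 in 2, and 0 of these 7 values passed 1.5-fold. Over all genes 4.73% passed in NK cells, 5.09% in T cells, 7.74% in B cells, 6.79% in macrophages and 7% in monocytes, in either direction. Most genes, like these 7 values, lay within 1.5-fold.

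Hsd11b1 had a female to male ratio of 0.997 (0.864 to 1.15) in NK cells and 0.920 (0.722 to 1.18) in T cells. Both NK clusters were near 1, at 1.03 in the Itga1 and 1.04 in the Eomes cluster. Over all cells the ratio was 1.26 (1.12 to 1.42), and the NK cell share of all cells was 23.4% and 15.1%. The intervals of NK and T cells, which held most Hsd11b1 UMIs, thus included 1, whereas the proliferating cells, with 27 and 3 UMIs, had a ratio of 3.41 (1.05 to 17.6).

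Nr3c1 was lower in the female library over all cells, at a ratio of 0.851 (0.777 to 0.933). The ratio was 0.776 (0.636 to 0.948) in NK cells, 0.835 (0.702 to 0.992) in macrophages, 0.873 (0.711 to 1.08) in T cells, 0.975 (0.683 to 1.41) in B cells and 1.03 (0.684 to 1.56) in monocytes. Only the NK cell and macrophage intervals excluded 1 among these 5 classes. In the Itga1 cluster of NK cells the ratio was 0.664 (0.517 to 0.856), past 1.5-fold as for 6.78% of genes there, and in the Eomes cluster it was 1.03. Within macrophages 0 of 2 subsets with 50 UMIs passed 1.5-fold, where 12.7% of genes in Lyve1-high cells and 7.07% in other macrophages did. The ratio was 0.762 (0.501 to 1.14) in Lyve1-high cells and 0.881 (0.716 to 1.08) in other macrophages, with both intervals including 1, and Lyve1-high cells were 2.60% of all female and 6.86% of all male cells. The median gene was itself at -0.09 (log2 of female over male) in NK cells and -0.10 in the Itga1 cluster, and relative to it their Nr3c1 ratios were 0.826 and 0.713. Among cells of 1000 to 3000 UMIs the NK cell ratio was 0.998, and with the mitochondrial ceiling of 1.2% the macrophage ratio turned to 1.57 (0.7365 to 3.30) from 15 and 18 UMIs and the T cell ratio was 0.282.

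Esr1 had a ratio of 0.899 (0.599 to 1.36) over all cells, 1.38 (0.625 to 3.34) in NK cells and 0.675 (0.329 to 1.36) in macrophages. Nr3c2 had too few UMIs for a ratio in any class. Counting error alone thus allows Esr1 to be from 0.599 to 1.36 times as high in the female as in the male library.

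The machinery around the receptors was read from lists of related genes in macrophages, by the same 1.5-fold count, where 2.88% of all genes were higher in the female library. Of 9 receptor chaperones 1 was higher and 0 lower, namely Fkbp5, a chaperone that is itself induced by glucocorticoids, with a ratio of 2.60 (2.16 to 3.13). The next was Hsp90aa1 at 1.25 and the lowest were Bag1 at 0.916 and Hspa8 at 0.967. Of 10 receptor coregulators 0 passed in either direction, with Crebbp (1.21) and Ncor1 (1.14) highest and Ncoa2 (0.847) and Ncoa1 (0.906) lowest. The membrane steroid receptor genes with enough UMIs, Paqr7, Pgrmc1 and Pgrmc2, had ratios of 1.22, 0.826 and 0.747, and the estrogen-related receptor gene Esrra had 0.783.

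Genes known to be induced through the glucocorticoid receptor were compared between the libraries in the same way. In macrophages 7 of 12 such genes with enough UMIs passed 1.5-fold toward the female library and 0 toward the male one, with a median log2 ratio of 0.71 beside -0.03 over all genes. Klf9 (3.07) and Fkbp5 (2.60) had the highest ratios and Cd163 (0.695) and Txnip (0.823) the lowest, while Nr3c1 was at 0.835 in the same cells. The direction of Cd163 turned within the subsets, with 3.31 (2.14 to 5.28) in other macrophages and 0.748 (0.598 to 0.931) in Lyve1-high cells, which held 122 of 237 female and 262 of 302 male Cd163 UMIs of macrophages. Cd163 was also a marker of the Lyve1-high subset and was not held out of clustering. Its division between the subsets is therefore not independent of how they were defined. Txnip was at 1.005 and 0.702 in the same subsets. In NK cells, where Hsd11b1 was at 0.997, 4 of 8 were higher, beside 1.45% of all genes. In T cells 2 of 9 were higher, beside 3.19% of all genes, and in monocytes 3 of 8, beside 4.03%. In B cells 0 of 3 were higher, beside 4.54%, and their ratios of 1.02 to 1.15 stood beside 0.975 for Nr3c1. Over all cells 3 of 13 were higher, beside 2.36% of all genes, and 1, Cd163 at 0.482, was lower. Other macrophages had 8 of 11 higher, Cd163 among them, beside 4.44% of all genes. These cells differed in make-up, with few MHC class II transcripts in 158 female and 14 male cells and many in 473 and 511. The part of this difference in the count was not tested. In Lyve1-high macrophages 0 of 4 were higher, beside 2.56% of all genes, with a median of -0.34, and their ratios of 0.702 to 0.890 stood beside 0.762 for Nr3c1.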

How the data were processed

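Single-cell RNA of CD45+ adrenal gland cells was measured in 1 female and 1 male library. The values are raw UMI counts per gene and barcode, which the authors made with Cell Ranger 4.0.0 on build mm10 from a 3′ kit (v3.1) and deposited; the labels name a DropletUtils (1.4.3) filter on barcodes, and the build is from the submitters' processing notes. Such counts depend on depth, 3′ capture and free RNA. Cells with at least 200 genes and up to 15% mitochondrial UMIs were kept. The ceiling of 1.2% that the methods state would keep 333 female and 366 male barcodes, far fewer cells than the study kept, so its scale is unclear and values given for it are a trial of the stated number only. Scrublet in scanpy 1.11.5 called under 0.5% of barcodes as doublets on its own threshold, and the male calls changed with the linear algebra library while the scores did not, so the 126 and 58 top-scoring barcodes were removed at the expected rate. Cells were integrated and clustered with Seurat 5.3.0 and sctransform 0.4.2 (R 4.3.3, 2000 features, 20 components, resolution 1), with the members, related genes and sex-linked genes among 81 genes held out. Cd163, a related gene that is also a Lyve1-high marker, was not held out. Clusters were named from marker lists, with naming thresholds and the division of the mast cell and innate lymphoid cluster set after the clusters had been seen. The 2 unnamed clusters (91 female and 159 male cells) entered no class. Poisson, binomial, ratio and difference intervals (scipy 1.17.1) are at 95%. The members, marker lists and gene lists were chosen with earlier results of these data known. Named genes were all members, every gene of the receptor and of the metabolism and export lists, the 2 highest and 2 lowest ratios of each other list in macrophages among genes with at least 50 UMIs, and the 5 genes most similar to Nr3c1 and to Hsd11b1 in 18 class levels. With 1 library a sex no p-value was computed. The alternatives tried were other mitochondrial ceilings, doublets kept, cells gated singly, another resolution, another total, per-cell means, leaving out the top 5 cells and other thinning depths. The ratio scripts were tested on simulated data.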

Additional observations from a re-analysis of the deposited data

Results flagged for a closer look

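Some Nr3c1 and Hsd11b1 UMIs lay in the 2 clusters that entered no class, above the 3 UMIs that a count of 0 would allow. In the smaller of them, led by Tcrg-C1, Nr3c1 was at 242 CPM (136 to 400) from 15 UMIs in 19 female cells and at 200.2 CPM (86.4 to 395) from 8 UMIs in 15 male cells. The low-depth cluster had a median of 798 female and 675 male UMIs per cell. It scored best as macrophage, with a macrophage marker in 99.5% of its cells, but did not meet the naming rules and so is absent from the macrophage values. In it female Nr3c1 was at 122 CPM (66.7 to 205) from 14 UMIs in 72 cells and female Hsd11b1 at 43.6 CPM (14.2 to 102) from 5 UMIs. The 144 male cells of that cluster had 3 Nr3c1 UMIs (24.8 CPM) and 0 Hsd11b1 UMIs, and the female to male ratio of Nr3c1 was 4.92 (1.37 to 26.7). No explanation was tested for these values.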

How the results depend on the processing

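Of 159 ratios recomputed under the alternatives 140 stayed within their interval, and so did 798 of 960 levels. A reversal was not defined for levels. A ratio was counted as reversed only if its main interval excluded 1 and its direction turned, so turns of other ratios were not counted. Leaving out the 5 richest cells moved 55 of 116 levels, and thinning to 500 UMIs or not at all moved 34 of 40 shares and 4 of 8 differences of shares. The 2 ratios that reversed both came from the mitochondrial ceiling of 1.2%, which leaves few cells and whose scale is unclear: Nr3c1 in male innate lymphoid cells over macrophages (0.799, 1 UMI) and female over male Nr3c1 in macrophages (1.57). With that ceiling female Hsd11b1 was 3.77 for NK over T cells and 21.8 for NK cells over macrophages, and female over male was 0.282 for Nr3c1 and 4.51 for Hsd11b1 in T cells. A ceiling of 5% gave a male Lyve1-high over other macrophage ratio of Nr3c1 of 1.86, and gating cells one by one gave a female one of 1.36. The female NK over macrophage ratio of Hsd11b1 was 20.4 with doublets kept and 94.3 without the 5 richest cells, and the male one 25.8 as a mean over cells. In cells of 1000 to 3000 UMIs, an alternative chosen after seeing the data, Hsd11b1 was 3.69 and 4.13 for NK over T cells, 143 for female NK cells over macrophages and 1.95 for the female Eomes over Itga1 cluster, Nr3c1 was 3.36 for male Lyve1-high over other macrophages and 1.46 for the male Cxcr6 over Lef1 cluster, and female over male Nr3c1 was 0.998 in NK and 1.14 in T cells. The NK minus T cell share with Hsd11b1 was 22.5 and 27.6 points unthinned and 3.56 points in the male library at 500 UMIs, and the male Lyve1-high minus other macrophage share with Nr3c1 was 3.17 points at 500 UMIs. The cause of these shifts was not tested. Ratios between the NK or T clusters have no value where cells were clustered again or gated singly. No paired analysis was possible because each sex has 1 library. Depth limits Esr1 and Nr3c2 in every class, and all members in classes under 100 cells.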
